A study of Mus musculus with 12 samples.

Results

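The comparison described here is the interaction of Ctnnb1 knockdown with dDAVP: the dDAVP effect in cells given Ctnnb1 siRNA minus the dDAVP effect in cells given control siRNA, gene by gene. It was taken over all 12 of the 12 libraries of the series and all genes of the deposited count table, of which 16508 of 25208 were abundant enough to test. The cells were mpkCCDc11, an immortalised mouse line from the kidney collecting duct, labelled wild type. They were transfected with 50 nM control siRNA or 50 nM Ctnnb1 siRNA, cultured for 4 days on permeable filters, then starved of serum and hormones for 24 h. Vehicle or 1 nM dDAVP was then applied to the basolateral side for 24 h. This gave 4 groups of 3 libraries: control siRNA with vehicle, control siRNA with dDAVP, Ctnnb1 siRNA with vehicle and Ctnnb1 siRNA with dDAVP. All libraries come from 1 cell line, and the labels do not say whether replicates were separate cultures, so p-values measure only the spread between these libraries. The study's title names its question, the effect of beta-catenin on genes that respond to vasopressin.

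Vasopressin acts on collecting duct principal cells through the V2 receptor, which raises cAMP and activates protein kinase A. The kinase phosphorylates transcription factors of the CREB family and drives both the movement of the water channel Aqp2 to the apical membrane and the transcription of its gene. dDAVP is an agonist selective for the V2 receptor. Beta-catenin, encoded by Ctnnb1, links cadherins to the cytoskeleton at cell junctions and, when stabilised by Wnt ligands or phosphorylated by kinases such as protein kinase A, acts in the nucleus as a coactivator of TCF and LEF factors. An interaction asks whether lowering beta-catenin changes the size of the response to dDAVP, separately from any shift it causes in both treatments alike.

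Libraries held 32997720 to 48935473 counted reads. Ctnnb1 (chromosome 9, 120933400 to 120960507, GRCm38) stood at 745 to 811 CPM (counts scaled to the size of the library) in the 6 control-siRNA libraries and at 306 to 342 CPM in the 6 knockdown libraries. Its knockdown was 2.39-fold with vehicle and 2.37-fold with dDAVP. In this gene the interaction was 0.02 on the log2 scale (95% confidence interval -0.12 to 0.16), and the depth of the knockdown therefore did not differ detectably between treatments. Of 17 principal cell markers, 16 were in the table and summed to 1482 to 1750 CPM in every library, most of it from Cdh16 (881 to 1200 CPM) and Npnt (239 to 355 CPM). Avpr2, Gata3 and Scnn1a were present at 19.0 CPM or more, while Aqp3, Fxyd4 and Scnn1b stayed at or under 1.71 CPM and Aqp4 and Kcnj1 were near 0. Among markers of other cell types, those of intercalated cells (9 of 15 in the table) summed to 87.8 to 122 CPM, with group means of 94.0 CPM with vehicle and 114 CPM with dDAVP in control cells and 101 and 115 CPM after knockdown; their part in the results was not tested. The 4 of 10 proximal tubule markers in the table summed to 71.0 to 96.4 CPM, of which Lrp2 made up 70.7 to 95.8 CPM. Markers of leukocytes (5 of 10 in the table) summed to 24.7 to 31.1 CPM, of fibroblasts (5 of 10) to 1.64 to 3.40 CPM and of endothelium (6 of 8) to 0.535 to 1.52 CPM. Library 3 of the knockdown dDAVP group stood apart from its group. Its counts differed from those of its mates by a chi-square per gene of 42.8 and 69.4, against 5.34 to 25.4 for the other pairs, and it held 1.52% of reads in mitochondrial ribosomal RNA against 0.831% and 0.464% in its mates. Some of the results that rest on it are given with and without it, and others only with it.

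No gene passed the test for an interaction. With edgeR's quasi-likelihood test, 0 of 16508 genes (0%) were called at an adjusted p under 0.05, and the smallest adjusted p was 0.865. At an unadjusted p under 0.05 there were 829 genes (5.02% of those tested, against the nominal 5%), 439 with a larger dDAVP effect after knockdown and 390 with a smaller one. Cut into 10 equal bins from 0 to 1, the p-values fell at 9.19% to 10.95% of genes a bin. DESeq2 called 1 gene, Nr4a1, while limma with voom weights called 0 (1878 genes unadjusted, 11.4%) and limma on log2 TPM called 0 (816 unadjusted, 4.94%). No gene was called when any 1 library was left out. The unadjusted count was then 1739 (10.3%) without library 3 of the knockdown dDAVP group and 1422 (8.43%) without library 2 of the control dDAVP group. It was 541 (3.2%) without library 1 of the knockdown vehicle group and 649 to 1048 (3.85% to 6.2%) without any of the others. A share near the nominal 5% thus held for the main fit and not for every alternative.

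The same fit did find the 2 effects whose combination was tested. Averaged over the siRNAs, dDAVP changed 1133 genes (6.86%), raising 714 and lowering 419. Averaged over the treatments, Ctnnb1 siRNA changed 305 genes (1.85%), raising 155 and lowering 150. Taken separately, dDAVP changed 467 genes (2.83%) with control siRNA and 459 (2.78%) with Ctnnb1 siRNA, and 283 were in both sets, which is 60.6% of the first and 61.7% of the second. None of these moved in opposite directions. Without library 3 of the knockdown dDAVP group the average siRNA effect was called in 606 genes and the dDAVP effect with control siRNA in 843. The first count was 172 to 187 without library 2 or 3 of either vehicle group or library 3 of the control dDAVP group. The second was 240 to 269 without library 2 or 3 of the control vehicle group or library 1 or 3 of the control dDAVP group, and the dDAVP effect with Ctnnb1 siRNA was called in 250 and 212 genes without library 1 and 2 of the knockdown vehicle group. Of the 184 genes called with control siRNA only, 51 had an unadjusted interaction p under 0.05, and of the 176 called with Ctnnb1 siRNA only, 42 did. These counts follow in part from the choice of genes, since being called on one side and not on the other favours a difference.

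The precision of the interaction was set by 3 libraries a group. Over all tested genes its median standard error was 0.134, and the 95% interval reached 0.286 to either side, or 1.22-fold. Among 13230 genes with a mean of at least 1 CPM the interval reached 0.241. The 1133 genes changed by dDAVP on average were chosen from a contrast that does not favour an interaction in either direction in this balanced layout. Their median interaction was 0.01, against 0.004 for all genes, and 68 of them (6.00%) had an unadjusted p under 0.05. For 1024 of them (90.4%) the 95% interval lay within a 2-fold difference, and for 890 (78.6%) within 1.5-fold. A change of the dDAVP effect larger than that is outside the interval for those genes. Their median interval reached 0.234 to either side, or 1.18-fold. All these intervals are for single genes and are not adjusted for the number tested.

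The dDAVP responses of the 2 siRNA groups were nearly the same size. Over 1040 of these genes with at least 1 CPM in every group, the effect after knockdown plotted against the effect in control cells had a slope of 0.969 (jackknife SE 0.122 over libraries), where 1 is an equal response. With all 1133 genes the slope was 0.941 (SE 0.108). The 36 genes that dDAVP raised at least 2-fold, again with at least 1 CPM in every group, had a median log2 effect of 1.49 with control siRNA and 1.38 with Ctnnb1 siRNA. Of these 36 genes, 34 were called in the first group, 33 in the second and 33 in both. Both slopes were closer to 1 than their errors, so no overall change in the size of the response was measured beyond that error.

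**Figure D1:**
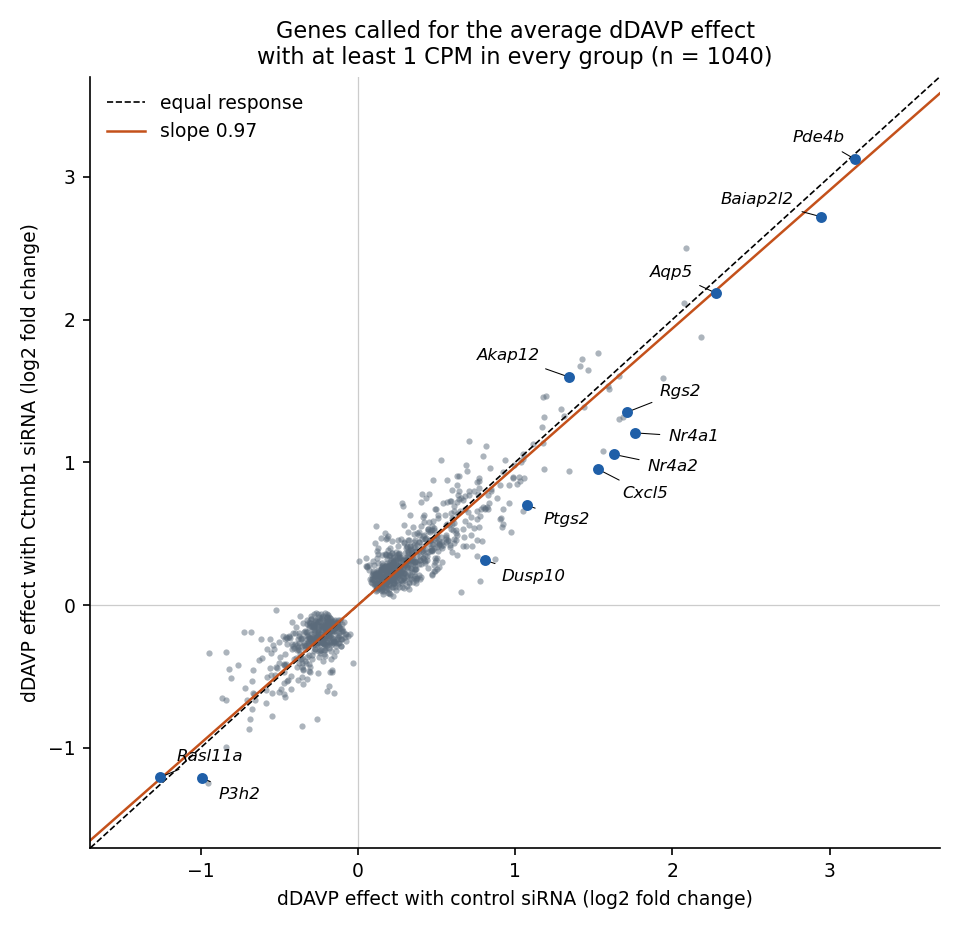
dDAVP effect after Ctnnb1 siRNA (vertical, log2 fold change) against the effect with control siRNA (horizontal, log2 fold change) for 1040 genes called for the average dDAVP effect, 1 point a gene. The points follow the dashed line of equal response with a slope of 0.97 (orange), and Nr4a1, Nr4a2, Cxcl5, Ptgs2 and Dusp10 (blue, labelled) lie below it on the side of a smaller effect after knockdown.

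Nr4a1 (chromosome 15, 101253902 to 101274795, GRCm38), an orphan nuclear receptor and immediate early gene induced by cAMP, had the smallest interaction p of all genes. With vehicle it measured 10.7, 9.33 and 9.96 CPM in control cells and 14.4, 13.1 and 13.6 CPM after knockdown. With dDAVP it measured 35.1, 33.7 and 33.2 CPM in control cells and 30.4, 31.6 and 32.9 CPM after knockdown. All knockdown libraries were above all control libraries with vehicle and below all of them with dDAVP. dDAVP raised the gene by 1.76 on the log2 scale with control siRNA (SE 0.0721, edgeR adjusted p 2.35e-09) and by 1.21 after knockdown (SE 0.0702, adjusted p 1.34e-07). The interaction was -0.55 (SE 0.10, 95% interval -0.77 to -0.34, unadjusted p 5.24e-05, adjusted p 0.865 in edgeR), a ratio of fold changes of 0.681. On the additive scale dDAVP added 24.0 CPM (SE 0.711) in control cells and 17.9 CPM (SE 0.814) after knockdown. Most of the difference came from the vehicle side: Ctnnb1 siRNA raised Nr4a1 by 0.45 with vehicle (adjusted p 0.0109), and with dDAVP the siRNA difference was -0.11 (adjusted p 0.578).

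Over 20 alternative analyses the interaction of Nr4a1 stayed between -0.61 and -0.52. Its adjusted p ran from 0.00859 to 1: it was 0.00859 with DESeq2, 0.0719 with voom weights and 0.208 or more in all the others. Whether Nr4a1 is called thus depends on the tool, while its direction stayed the same and its size changed little. These analyses reuse the same libraries, so their likeness is not independent support. Nr4a1 was also picked for the smallest interaction p of all genes, which favours a large estimate.

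**Figure D2:**
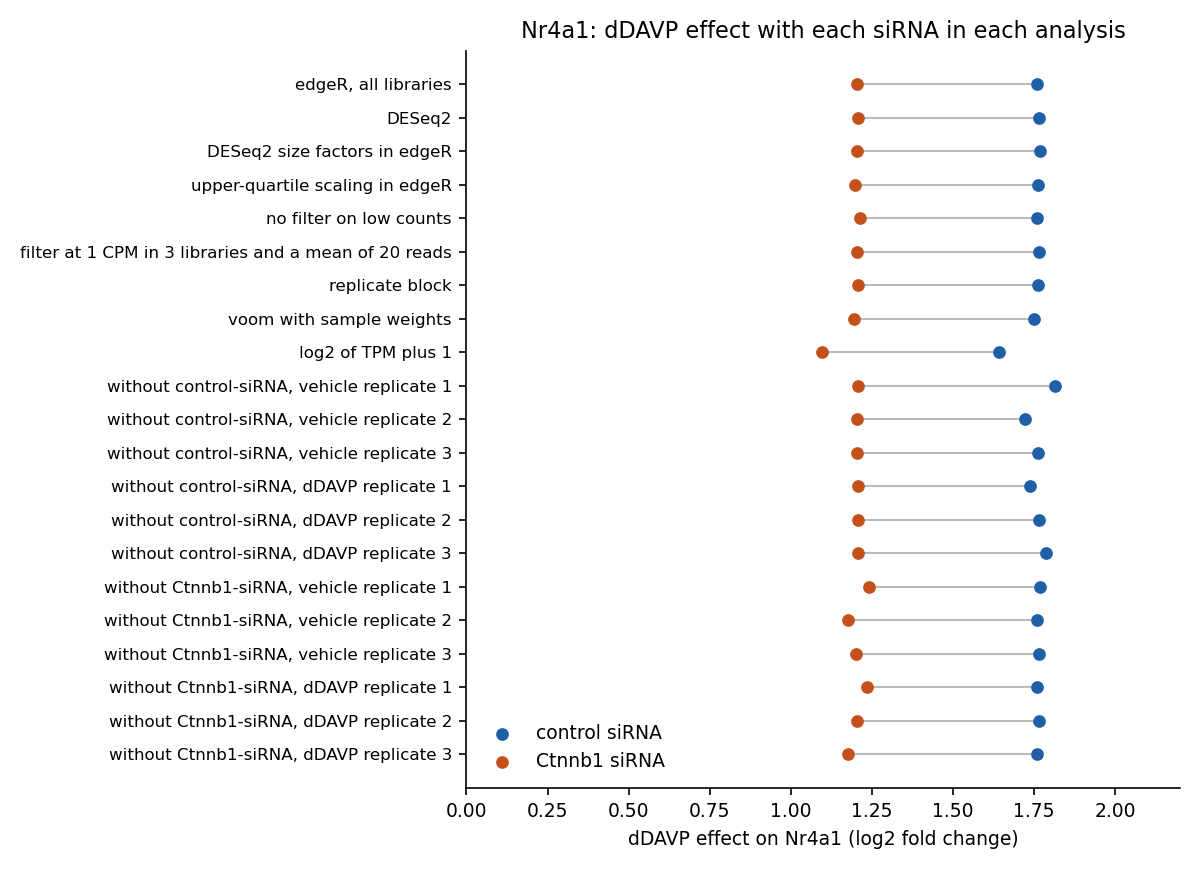
dDAVP effect on Nr4a1 (log2 fold change, horizontal) with control siRNA (blue) and Ctnnb1 siRNA (orange) in each of 21 analyses (rows), joined by a grey line whose length is the interaction. The blue points lie to the right of the orange points in every row, by 0.52 to 0.61.

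Its relatives Nr4a2 and Nr4a3 were measured with less precision. Nr4a2 measured 2.98, 3.13 and 4.32 CPM with vehicle and 12.2, 10.2 and 9.96 CPM with dDAVP in control cells. In knockdown cells it measured 3.92, 4.03 and 3.92 CPM with vehicle and 7.90, 7.29 and 9.48 CPM with dDAVP. The vehicle values overlapped, and the dDAVP values after knockdown were all below those of control cells. dDAVP raised Nr4a2 by 1.63 and 1.06, with an interaction of -0.57 (SE 0.21, unadjusted p 0.0145, adjusted p 0.918). Nr4a3 was near the limit of detection, with 3 reads in the 3 control vehicle libraries and 13 in the knockdown vehicle libraries, against 141 and 140 with dDAVP. At these counts its interaction (-2.12, 95% interval -5.51 to 1.26) cannot be read as a difference.

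The promoters of this family are shown because cAMP acts on such genes through CREB, which binds the half-site TGACG, read on the other strand as CGTCA. Each line gives the 250 bases before the start site that the RefSeq table for GRCm38.p6 lists, 5′ to 3′ on the gene's strand, with half-sites in capitals. Nr4a1 lies at chr15:101266596-101266845 on the plus strand, which is inside the span annotated for the gene. Nr4a2 lies at chr2:57124004-57124253 on the minus strand, Nr4a3 at chr4:48045055-48045304 on the plus strand and Aqp2 at chr15:99578806-99579055 on the plus strand.
Nr4a1: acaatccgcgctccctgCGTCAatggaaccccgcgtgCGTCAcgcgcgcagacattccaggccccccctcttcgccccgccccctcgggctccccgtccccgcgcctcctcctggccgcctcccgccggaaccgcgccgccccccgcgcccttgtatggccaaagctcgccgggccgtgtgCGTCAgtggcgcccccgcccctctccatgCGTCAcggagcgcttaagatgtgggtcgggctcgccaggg
Nr4a2: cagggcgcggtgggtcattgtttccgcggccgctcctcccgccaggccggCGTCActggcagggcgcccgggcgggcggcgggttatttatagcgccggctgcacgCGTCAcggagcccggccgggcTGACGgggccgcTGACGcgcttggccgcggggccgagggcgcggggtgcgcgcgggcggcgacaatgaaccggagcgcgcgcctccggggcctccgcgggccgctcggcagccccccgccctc
Nr4a3: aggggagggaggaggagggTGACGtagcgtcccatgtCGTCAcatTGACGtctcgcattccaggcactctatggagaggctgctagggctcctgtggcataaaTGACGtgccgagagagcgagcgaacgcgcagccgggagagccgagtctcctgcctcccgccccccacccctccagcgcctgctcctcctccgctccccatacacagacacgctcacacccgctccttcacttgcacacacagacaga
Aqp2: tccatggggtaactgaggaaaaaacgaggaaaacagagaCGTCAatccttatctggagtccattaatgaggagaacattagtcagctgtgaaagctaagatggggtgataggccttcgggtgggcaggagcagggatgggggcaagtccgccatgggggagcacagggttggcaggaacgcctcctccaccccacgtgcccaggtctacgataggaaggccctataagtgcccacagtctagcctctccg
All 3 Nr4a windows held 4 half-sites and the Aqp2 window 1. Of other genes described here, the windows of Cebpb held 3, of Rgs2 2, of Dusp10 and Ptgs2 0, and 1 of the 4 windows of Pde4b held 1. Of 14844 windows that the table gives for 11680 tested genes, 3738 (25.2%) held at least 1 half-site and 41 (0.276%) at least 4. The windows of genes raised by dDAVP on average held at least 1 in 26.4% of cases and those of lowered genes in 20.7%. The full palindrome TGACGTCA was in 2.44% of all windows and 2.46% of those of raised genes. The core CTTTGAT of TCF and LEF sites (ATCAAAG on the other strand) was in 2.34% of all windows and in none of the windows printed here. Such matches describe the letters only.

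A further group of dDAVP-raised genes outside the Nr4a family was, like Nr4a1, higher with vehicle after knockdown. With dDAVP the siRNA groups of these genes overlapped, whereas those of Nr4a1 did not. Dusp10, a phosphatase that dampens p38 and JNK kinases, measured 3.47, 3.76 and 4.25 CPM with vehicle and 6.98, 6.60 and 6.55 CPM with dDAVP in control cells. In knockdown cells it measured 5.98, 5.52 and 5.64 CPM, and 7.20, 6.97 and 7.14 CPM. The knockdown vehicle libraries were all above the control ones, and the dDAVP libraries overlapped. dDAVP raised Dusp10 by 0.81 with control siRNA (adjusted p 0.000382), the effect after knockdown was 0.31 (adjusted p 0.147), and the interaction was -0.49 (SE 0.15, unadjusted p 0.00468, adjusted p 0.918). Ptgs2, the inducible cyclooxygenase that starts prostaglandin synthesis, measured 17.4, 16.2 and 17.6 CPM with vehicle in control cells and 25.1, 23.1 and 22.2 CPM after knockdown. With dDAVP it measured 34.5, 37.4 and 35.8 CPM in control cells and 34.9, 32.9 and 46.6 CPM after knockdown, the last from the library that stood apart. The vehicle groups of Ptgs2 did not overlap and the dDAVP groups did. Its interaction was -0.37 (unadjusted p 0.0241), and -0.54 without that library. Cxcl5, a neutrophil chemokine, measured 8.79 to 9.81 CPM with vehicle in control cells and 13.3 to 17.1 CPM after knockdown, and with dDAVP 20.3 to 31.3 and 26.3 to 33.5 CPM, with an interaction of -0.57 (unadjusted p 0.0141). These genes, apart from Nr4a1 and Dusp10, were picked after their values were seen, and none had an edgeR adjusted interaction p under 0.865.

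**Figure D3:**
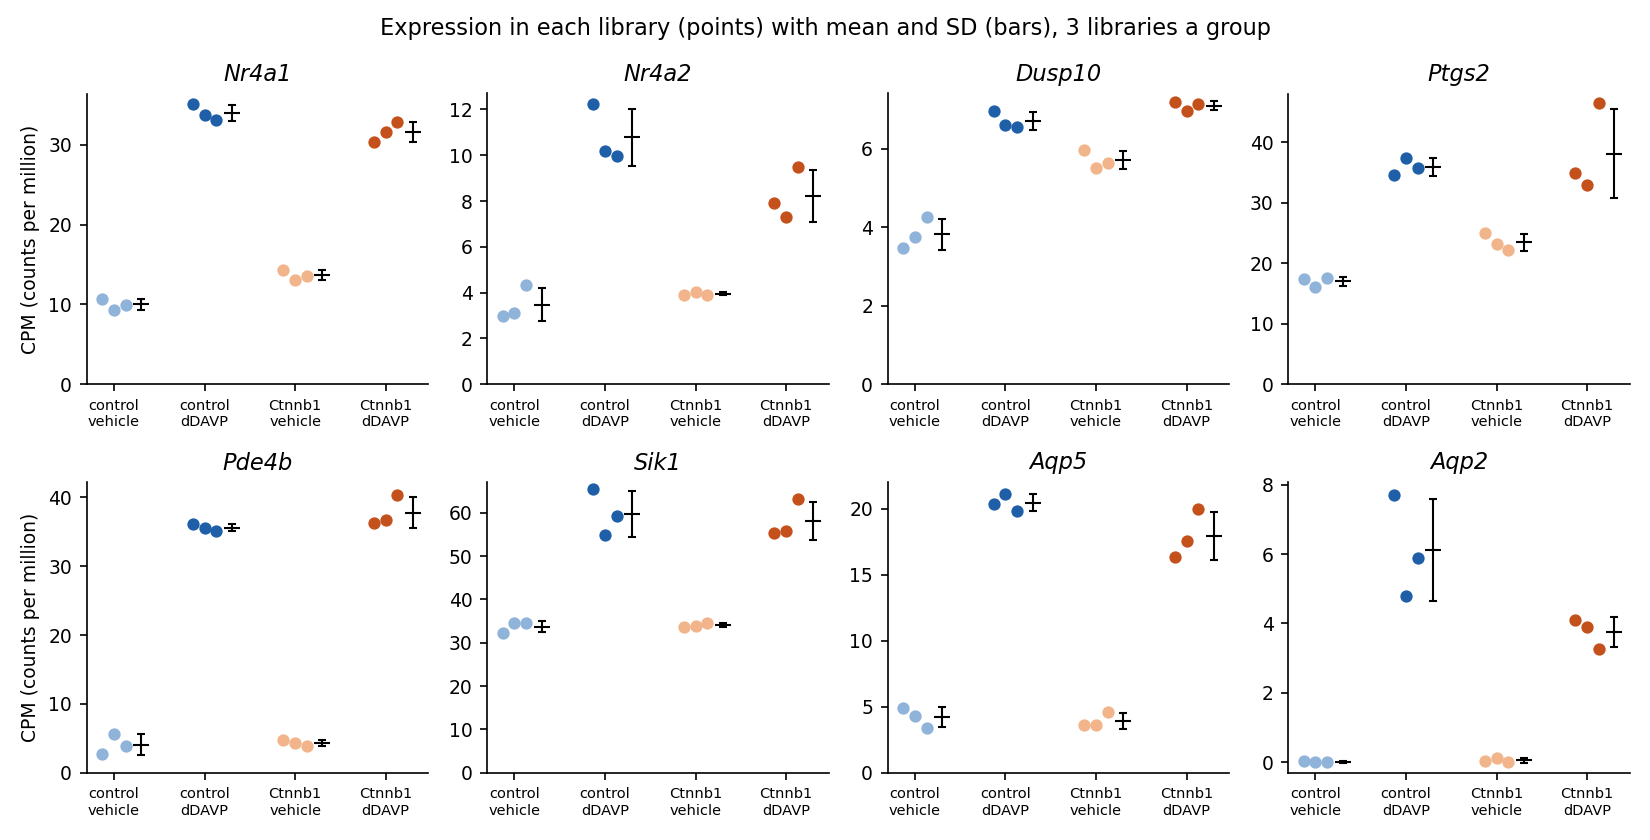
CPM in each of the 12 libraries (points) with the mean and SD of each group of 3 (black bars) for 8 dDAVP-raised genes, with siRNA and treatment on the horizontal axis. In the top row the Nr4a1, Dusp10 and Ptgs2 vehicle values were higher after Ctnnb1 siRNA, and in the bottom row Pde4b, Sik1 and Aqp5 had overlapping vehicle values with either siRNA.

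Several other cAMP-induced genes had interactions near 0, while those of Rgs2 and Pde4d were negative with wide intervals. Pde4b, a phosphodiesterase that breaks down cAMP, measured 2.69, 5.67 and 3.86 CPM with vehicle and 36.2, 35.6 and 35.1 CPM with dDAVP in control cells. The knockdown cells had 4.78, 4.33 and 3.92 CPM with vehicle and 36.3, 36.8 and 40.4 CPM with dDAVP. Its rise was 8.94-fold and 8.72-fold, and the interaction was -0.04 (95% interval -0.54 to 0.47). Sik1, a kinase that restrains CREB signalling, rose from 32.1, 34.4 and 34.6 CPM to 65.4, 54.8 and 59.1 CPM in control cells. After knockdown it rose from 33.6, 34.0 and 34.5 CPM to 55.4, 55.7 and 63.2 CPM. Both treatments overlapped between siRNAs, and the interaction was -0.05 (95% interval -0.27 to 0.16). Fos, an AP-1 transcription factor, rose by 0.84 and 0.81 with an interaction of -0.03 (-0.30 to 0.24), and Crem, a CREB relative, by 0.68 and 0.59 with -0.10 (-0.40 to 0.21). Rgs2, which quenches G protein signals, rose by 1.71 and 1.35 with an interaction of -0.36 (-0.81 to 0.09), and Pde4d, another phosphodiesterase, by 1.94 and 1.59 with -0.35 (-0.84 to 0.15). The intervals of Rgs2 and Pde4d include both no difference and one as large as that of Nr4a1. With 1 library left out the interaction of Pde4d ran from -0.54 to -0.19. The value of -0.54 was without library 3 of the knockdown dDAVP group.

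Over the list of cAMP and CREB targets, 26 genes were tested. dDAVP raised 14 on average and lowered 1, Gadd45b, while Ctnnb1 siRNA lowered 3, namely Fosb, Fos and Junb. Over all 16508 tested genes dDAVP raised 714 and lowered 419 on average, and the siRNA lowered 150. For the interaction 0 were called in edgeR and 4 (15.4%, against 5.02% of all genes) had an unadjusted p under 0.05: Nr4a1, Nr4a2 and Ptgs2 with a smaller effect after knockdown and Cebpb with a larger one. The median interaction was -0.11 with 7 of 26 positive, against 0.004 and 51.1% positive over all genes, and it ran from -0.21 to -0.06 with 1 library left out. Cebpb, a transcription factor induced by cAMP and inflammatory signals, measured 20.7, 25 and 24.0 CPM with vehicle and 24.8, 26.8 and 27.5 CPM with dDAVP in control cells. The knockdown cells had 20.3, 19.8 and 19.0 CPM, and 27.9, 27.9 and 26.1 CPM. The control groups overlapped and the knockdown groups did not. dDAVP raised Cebpb by 0.47 after knockdown (adjusted p 0.00215), its effect with control siRNA was 0.18 (adjusted p 0.264), and the interaction was 0.29 (SE 0.11, unadjusted p 0.0171).

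Aqp2 (chromosome 15, 99579056 to 99584545, GRCm38), the vasopressin-regulated water channel, was read almost only with dDAVP. The 3 control vehicle libraries held 2, 0 and 0 reads and the 3 knockdown vehicle libraries 2, 6 and 0. With dDAVP they held 302, 189 and 279 reads in control cells, or 7.69, 4.78 and 5.88 CPM, and 187, 171 and 155 reads after knockdown, or 4.09, 3.91 and 3.26 CPM. With dDAVP the knockdown libraries were all below the control libraries, by 1.63-fold on pooled reads (95% counting interval 1.45 to 1.82). The edgeR adjusted p of that difference was 0.287, and an exact permutation test of 3 against 3 gave p = 0.1, the smallest it allows. On pooled reads dDAVP raised Aqp2 392-fold in control cells (counting interval 108 to 3244) and 60.0-fold after knockdown (30.2 to 140). The ratio of the 2 folds was 0.153 (0.0158 to 0.772), and these intervals cover counting error only. The fitted interaction, which depends on the prior count added to such genes, was -2.53 (SE 1.16, 95% interval -5.00 to -0.06, unadjusted p 0.0449, adjusted p 0.918). It rested on 10 vehicle reads. Without library 2 of the knockdown vehicle group, which held 6 of them, the unadjusted p was 0.425, and over all alternatives the estimate ran from -5.19 to -0.74. On the additive scale dDAVP added 6.10 CPM (SE 0.849) in control cells and 3.69 CPM (SE 0.254) after knockdown. Whether counting used the strand is not given in the sources used here, so reads of the overlapping predicted gene Gm34765 cannot be told apart from those of Aqp2, Aqp5 and Aqp6.

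Aqp5, a water channel of secretory epithelia whose gene neighbours Aqp2, measured 4.94, 4.26 and 3.43 CPM with vehicle and 20.4, 21.1 and 19.8 CPM with dDAVP in control cells. After knockdown it measured 3.62, 3.58 and 4.64 CPM, and 16.4, 17.6 and 19.9 CPM. The siRNA groups overlapped within each treatment, and the interaction was -0.09 (95% interval -0.49 to 0.30). Aqp6, an intracellular channel of acid-secreting cells, rose by 1.56 and 1.08 (interaction -0.48, interval -1.26 to 0.29). Aqp3, a basolateral water channel of principal cells, rose by 1.19 with control siRNA (adjusted p 0.0445), its effect after knockdown was 0.83 (adjusted p 0.159) and the interaction was -0.36 (interval -1.24 to 0.51). Of the 5 water and urea channels tested, 4 were raised by dDAVP on average, against 714 of all 16508 tested genes. A negative interaction was found in 4 of the 5, against 8077 of all tested genes, with none called. Among 25 genes of Aqp2 trafficking, 0 had an unadjusted interaction p under 0.05 in edgeR and the median was -0.02.

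The genes that carry the vasopressin signal had a median interaction near 0. Of 28 tested genes of the V2 receptor and protein kinase A machinery, dDAVP raised 7 and lowered 2 on average. Over all 16508 tested genes these counts were 714 and 419. The median interaction of the 28 was 0.01 with 15 positive, and 1 (3.57%, against 5.02% of all genes) had an unadjusted p under 0.05. Avpr2, the V2 receptor, was 34.3, 27.3 and 26.7 CPM with vehicle and 38.9, 42.6 and 39.4 CPM with dDAVP in control cells. After knockdown it was 30.6, 33.2 and 34.8 CPM, and 45.3, 45.2 and 42.5 CPM. All dDAVP values of Avpr2 were above all vehicle values with either siRNA, and its interaction was -0.02 (95% interval -0.28 to 0.24). Prkar2b, a regulatory subunit of protein kinase A, rose by 0.56 and 0.47 (interaction -0.09, interval -0.30 to 0.11). Akap12, a scaffold of the kinase, rose by 1.34 and 1.60 (interaction 0.26, interval -0.20 to 0.72), and its 3 knockdown dDAVP values were 339, 365 and 556 CPM, the last from the library that stood apart. Without that library the interaction of Akap12 was 0.004. Adcy3, an adenylyl cyclase, had an interaction of 1.13 at low counts. Its group sums were 172 reads with vehicle and 158 with dDAVP in control cells, and 93 and 206 after knockdown. Atp1b1, the beta subunit of the sodium pump, rose by 0.76 and 0.60 (interaction -0.16, interval -0.35 to 0.04). Among 22 genes of sodium and ion transport, 6 were raised by dDAVP on average and the median interaction was 0.004.

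Of the Wnt target list, 13 genes were tested, and Axin2, Nkd1, Notum and Lgr5 were not analysed here. Ctnnb1 siRNA lowered 1 of the 13 on average, against 150 of all 16508 tested genes. That gene was Rnf43, a ubiquitin ligase that removes Frizzled receptors, which fell by 1.73 on the log2 scale (adjusted p 0.000482). Rnf43 measured 2.55, 2.18 and 2.23 CPM with vehicle and 1.78, 1.87 and 1.83 CPM with dDAVP in control cells. The knockdown cells had 1.15, 0.473 and 0.420 CPM, and 0.744, 0.526 and 0.442 CPM. Its knockdown values were below its control values in both treatments, and its interaction was 0.10 (95% interval -0.83 to 1.03), too wide to exclude a 1.5-fold difference. dDAVP raised Myc and Ephb3 and lowered the Notch ligand Jag1 on average, with interactions of -0.19, -0.0027 and 0.02. The median interaction of the 13 genes was -0.13 with 4 positive (30.8%, against 51.1% of all genes). Among them 1 (7.69%, against 5.02% of all genes) had an unadjusted p under 0.05: Cd44, a hyaluronan receptor, at -0.36. Cd44 measured 9.57 to 10.1 CPM with vehicle in control cells and 13.1 to 13.7 CPM after knockdown, and with dDAVP 11.5 to 12.1 and 10.5 to 14.1 CPM.

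Of 36 Wnt pathway components, 0 were called for the average siRNA effect and 2 for the average dDAVP effect, Fzd4 upward and Wnt7a downward (edgeR). Over all tested genes these effects were called in 1.85% and 6.86%. Fzd4, a Frizzled receptor, rose by 0.77 and 0.89 with an interaction of 0.12 (95% interval -0.27 to 0.51). Without library 3 of the knockdown dDAVP group the interaction of Fzd4 was 0.0058. The median interaction of the components was -0.05 with 13 of 36 positive (36.1%, against 51.1% of all genes). Tcf7l1, a TCF factor, and Bcl9l, a beta-catenin coactivator, had unadjusted p-values of 0.0124 and 0.0352 with interactions of -0.70 and -0.49. In both genes library 1 was the highest of the control dDAVP group, at 7.59 against 4.50 and 5.35 CPM for Tcf7l1 and 36.6 against 23.2 and 30.3 CPM for Bcl9l. Neither was called for a dDAVP effect with either siRNA. Of 16 cadherins and catenins, Cdh3 was lowered and Ctnnal1 raised by the siRNA on average, against 150 and 155 of all 16508 tested genes. The interaction of Cdh3, P-cadherin, was 0.06 (interval -0.10 to 0.21).

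For genes changed by both agents the log2 changes added up to within a small median difference. Of 93 genes called for both averages, 45 were raised by both and 28 lowered by both, 16 were raised by dDAVP and lowered by the siRNA, and 4 the reverse. Their median interaction was 0.03, and 10 of 93 (10.8%, against 5.02% of all genes) had an unadjusted p under 0.05. For 87 of the 93 (93.5%) the 95% interval lay within a 2-fold difference. Of the 4 genes lowered by dDAVP and raised by the siRNA, 3 had such an interval. The 90th percentile of those 4 interactions was 4.25, and 1 of the 4 had an unadjusted p under 0.05. A positive interaction is a smaller fall in genes that dDAVP lowered. Of the 28 genes lowered by both, 20 were positive with a median of 0.06, and their median dDAVP effect was -0.33 with control siRNA and -0.25 after knockdown. In the 45 raised by both, 25 were positive with a median of 0.01. Nrp1, a coreceptor for semaphorins and VEGF, was lowered by both: 72.3, 63.8 and 60.4 CPM with vehicle in control cells, 45.8, 43.3 and 44.2 CPM with dDAVP, 43.5, 39.6 and 45.1 CPM with the siRNA, and 29.3, 32.0 and 33.2 CPM with both. Only the 2 groups with a single agent overlapped, and the interaction was 0.12 (95% interval -0.10 to 0.34). Jun, an AP-1 subunit, was lowered by 0.66 by the siRNA and by 0.27 by dDAVP on average (interaction 0.09, interval -0.12 to 0.30). Irs2, an insulin receptor substrate, was raised by dDAVP and lowered by the siRNA (interaction -0.05, interval -0.24 to 0.15). Adh7, an alcohol dehydrogenase, was raised by both (interaction -0.03, interval -0.43 to 0.38). Without library 3 of the knockdown dDAVP group the interaction of Adh7 was -0.21. Nqo1, an antioxidant quinone reductase, was raised by both, by 0.52 for dDAVP and 0.49 for the siRNA alone. Its interaction was -0.25 and was not called (edgeR unadjusted p 0.0242, adjusted p 0.918). dDAVP raised 14 of 17 NRF2 targets, the antioxidant genes that include Nqo1, on average, against 714 of all 16508 tested genes. The median interaction of the 17 was -0.04.

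The genes with the smallest positive interaction p were led by Entpd3, a membrane enzyme that breaks down extracellular nucleotides. It measured 3.14, 3.16 and 2.80 CPM with vehicle and 2.60, 2.81 and 2.55 CPM with dDAVP in control cells. After knockdown it measured 2.23, 1.98 and 2.17 CPM, and 3.37, 3.09 and 3.22 CPM. The knockdown libraries were all below the control ones with vehicle and all above them with dDAVP. dDAVP raised Entpd3 by 0.60 after knockdown (adjusted p 0.0228), the effect with control siRNA was -0.19 (adjusted p 0.560), and the interaction was 0.80 (SE 0.19, unadjusted p 0.000757, adjusted p 0.918). Zfas1, a long noncoding RNA that hosts small nucleolar RNAs, measured 93.6, 83.1 and 80.1 CPM with vehicle and 78.4, 83.3 and 73.5 CPM with dDAVP in control cells, groups that overlapped. After knockdown it measured 75.7, 81.4 and 79.6 CPM, and 88.7, 97.0 and 101 CPM, groups that did not. dDAVP raised Zfas1 by 0.28 after knockdown (adjusted p 0.0404), with an interaction of 0.40 (adjusted p 0.918). Coq7 of ubiquinone synthesis, the muscle atrophy ubiquitin ligase Fbxo32, Lamtor5 of the lysosomal Ragulator complex, the ribosomal protein Rpl39 and the nucleolar protein Wdr3 followed with interactions of 0.46, 0.40, 0.33, 0.35 and 0.28. In these 5 genes the dDAVP effect was negative with control siRNA and positive after knockdown, and none of the 10 single effects was called. Of the 829 genes with an unadjusted p under 0.05, 687 (82.9%) had dDAVP effects of opposite sign in the 2 siRNA groups. The share over all tested genes was 39.9%, and picking genes by a small interaction p itself favours opposite signs. Of the 829, 68 (8.20%) were called for the average dDAVP effect, against 6.86% of all tested genes.

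On the negative side, besides Nr4a1 and Dusp10, the list held Pclo, a presynaptic scaffold protein (-0.79), the transcription factor Nfic (-0.75), the tetraspanin Tspan18 (-0.75), the microtubule protein Map1a (-1.35), the amino acid transporter Slc36a1 (-0.48) and the Mediator subunit Med21 (-0.29). Their unadjusted p-values lay between 0.00311 and 0.00606. Nfic measured 18.6, 22.0 and 20.1 CPM with vehicle and 32.7, 21.2 and 26.5 CPM with dDAVP in control cells, then 28.9, 24.8 and 20.0 CPM, and 18.9, 17.7 and 21.3 CPM after knockdown. All 4 groups of Nfic overlapped with their counterparts. The histone genes H4c14 (-0.49) and Hist1h2ao (-0.40) were on the list too, but near-identical copies can share their reads.

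**Figure D4:**
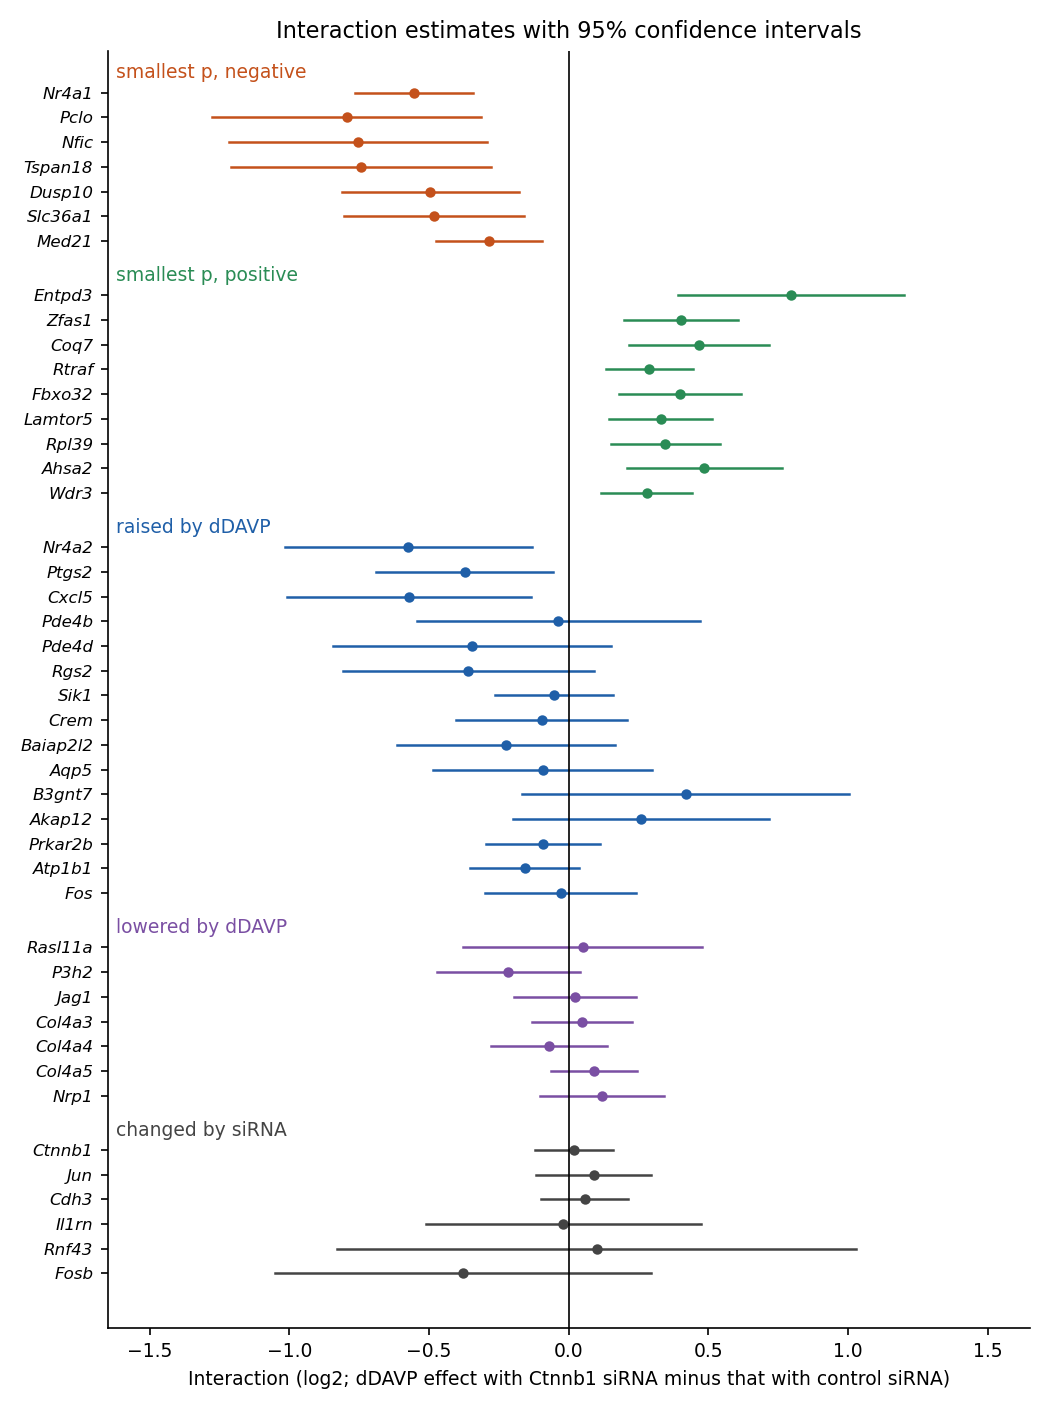
Interaction estimates (points, log2; negative is a smaller dDAVP effect after Ctnnb1 siRNA) with 95% confidence intervals (lines) for named genes, grouped by colour. The first 2 groups were picked by their interaction p and so lie away from 0, while most intervals of the genes raised or lowered by dDAVP or changed by the siRNA cross 0. Some genes of these later groups, among them Nr4a2, Ptgs2 and Cxcl5, were added after their values were seen.

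Genes that dDAVP lowered had interactions near 0 as well. P3h2, a collagen prolyl hydroxylase, measured 40.6, 38.9 and 38.2 CPM with vehicle and 22.5, 17.9 and 18.8 CPM with dDAVP in control cells. After knockdown it measured 41.9, 39.6 and 39.8 CPM, and 18.6, 15.7 and 18.1 CPM. The dDAVP values were below the vehicle values with either siRNA, and the interaction was -0.22 (95% interval -0.47 to 0.04). Rasl11a, a small GTPase, fell by 1.26 and by 1.21 (interaction 0.05, interval -0.38 to 0.48). Of 19 basement membrane genes dDAVP lowered 9 on average, against 419 of all 16508 tested genes. Among the 9 were the type IV collagen genes Col4a1 to Col4a5. Col4a3 fell by 0.67 and by 0.62, Col4a4 by 0.55 and by 0.62 and Col4a5 by 0.52 and by 0.43, with interactions of 0.05, -0.07 and 0.09. The median interaction of the 19 genes was 0.02, and 0 had an unadjusted p under 0.05 in edgeR.

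Several other lists had medians off 0 by small amounts, where over all genes 51.1% were positive and 5.02% had an unadjusted p under 0.05. Of all 16508 tested genes dDAVP raised 714 and lowered 419 on average. dDAVP raised 6 of 28 interferon-stimulated genes on average, and the median dDAVP effect of the list was 0.03 with control siRNA and 0.34 after knockdown. Of the 28, 25 had a positive interaction (89.3%), the median was 0.22 and 4 (14.3%) had an unadjusted p under 0.05 (Ifit2, Ifit3, Oas1a and Ifih1), with 0 called in edgeR. Reads of Oas1a and Ifit3 may be shared with close relatives. Ifit3 measured 8.77 to 11.2 CPM with vehicle and 10.0 to 10.9 CPM with dDAVP in control cells, then 7.64 to 9.61 CPM, and 10.4, 10.9 and 18.3 CPM after knockdown. The highest value was from the library that stood apart, and without that library the median of the list was 0.15. Of 40 ribosomal protein genes, 38 were positive (95%) with a median of 0.12 and 7 (17.5%) had an unadjusted p under 0.05. Of 29 nuclear genes of the respiratory chain, 27 were positive (93.1%) with a median of 0.09 and 3 (10.3%) had an unadjusted p under 0.05. Without library 2 of the knockdown dDAVP group, which held the highest share of reads in ribosomal protein genes (5.17%, against 4.22% to 4.90% in the others), these medians were 0.07 and 0.03. The ribosomal protein median was also 0.07 without library 1 of the control vehicle group, and the respiratory chain median was 0.14 without the library that stood apart. Of 20 MAPK feedback genes, dDAVP raised 3 and lowered 1 on average, 16 had a negative interaction and 3 (15%) had an unadjusted p under 0.05. Their median was -0.17, which was -0.07 without the library that stood apart and -0.28 without library 1 of the same group.

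The 13 mitochondrially encoded messages had a median of -0.19, which was -0.44 without library 3 and -0.04 without library 2 of the knockdown dDAVP group. The 10 small structural RNAs had a median of -0.27, which was -0.02 without library 3 and -0.47 without library 2 of that group. The share of reads in small structural RNAs ran from 1.32% to 3.07% over the 12 libraries. The interaction also varied with transcript length, here estimated from the ratio of reads to TPM, which 85.9% of genes allowed. Its median was 0.02, 0.04, 0.03, 0.01 and -0.04 from the shortest to the longest of 5 equal bins of these genes. In the shortest bin 8% and in the longest 3.10% had an unadjusted p under 0.05. The part of these library differences in the list medians was not tested beyond the values without each library.

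**Figure D5:**
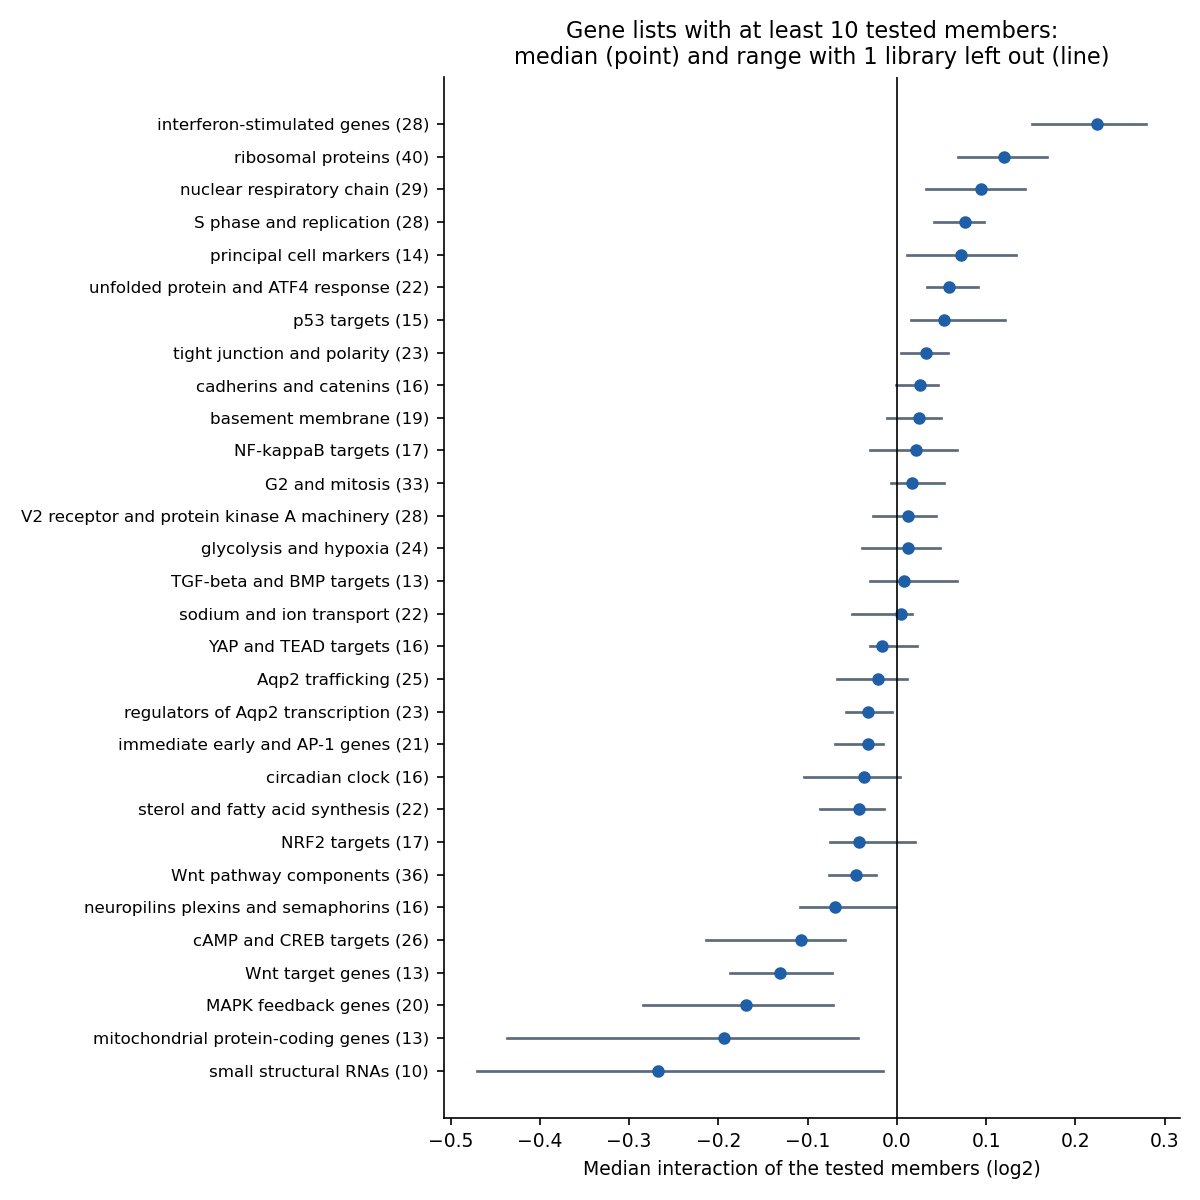
Median interaction (points, log2) of each gene list with at least 10 tested members, with the number tested in parentheses, and its range when each of the 12 libraries was left out in turn (lines). Interferon-stimulated and ribosomal protein genes stayed above 0 and cAMP, Wnt target and MAPK feedback genes below it in every such range. Many other lists also kept the same sign, among them nuclear respiratory chain and S phase genes above 0 and Wnt pathway components below it. The small structural RNAs and mitochondrial genes had the widest ranges.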

How the data were processed

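Strand-specific libraries were made from total RNA after removal of ribosomal RNA, per the labels' protocols. Per the submitters' processing notes, the tools were FastQC, Trimmomatic, HISAT2, StringTie and DESeq2 with the mouse build GRCm38 (mm10), and versions were not given. The deposited table holds unnormalised read counts for 25208 genes, with a column for each library as the file headers show. The same table has TPM values made by the authors, used here only in an alternative. Gene coordinates and promoter windows were taken from RefSeq tables for GRCm38.p6, and symbols were matched for 16464 of 16508 tested genes.

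The counts were fitted with edgeR 4.0.16 (R 4.3.3). filterByExpr on the group left 16508 genes with 99.968% of reads, TMM scaled the libraries, and 1 robust quasi-likelihood model with a mean for each of 4 groups was fitted to all 12 libraries. The interaction, the 2 averages and the single effects are contrasts of that fit. P-values were adjusted by Benjamini-Hochberg over all tested genes, called under 0.05, and are edgeR's unless another tool is named. CPM values are TMM-normalised, and fold changes carry a prior count of 0.125. The slope is total least squares through the origin. Counting intervals are at 95%. The interaction test was tested on simulated data.

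Genes were named by a rule: Ctnnb1 and Aqp2, the 10 smallest interaction p-values in each direction above a mean of 1 CPM, the 8 raised and 6 lowered genes with the largest average dDAVP effect, the 5 and 5 with the largest average siRNA effect, and up to 4 members each of 8 lists, leaving out pseudogenes, small RNAs and predicted genes by symbol. Sprr2g, a transcribed pseudogene in RefSeq, was not recognised by its symbol and is among them. The text gives some of these genes and not others. Others, among them Nr4a2, Nr4a3, Ptgs2, Cebpb, Cxcl5, Cd44, Nqo1 and Nrp1, were added after their values were seen. The comparison, the 39 gene lists and the rule were chosen with earlier results of these data known. Alternatives were DESeq2 1.42.0, 2 other scalings, 2 other filters, a replicate block, limma 3.58.1 with voom sample weights, limma on log2 TPM with a pseudocount of 1, and each library left out.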

Additional observations from a re-analysis of the deposited data

Results flagged for a closer look

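The interaction of Nr4a1 passed the threshold with DESeq2 and in no other analysis, so whether it is called depends on the tool. With DESeq2 its adjusted p was 0.00859 and the estimate -0.56 on the log2 scale, against an adjusted p of 0.865 and -0.55 with edgeR. It was the only gene that DESeq2 called among 16508, and DESeq2 gave 754 genes (4.57%) an unadjusted p under 0.05. All 3 knockdown libraries were above all 3 control libraries with vehicle and below them with dDAVP.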

How the results depend on the processing

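The count of genes called for the interaction was 0 in edgeR and in 19 of 20 alternatives, and 1 with DESeq2. With voom weights the average dDAVP effect gave 1843 genes, the average siRNA effect 924 and the dDAVP effect with control siRNA 1301. DESeq2 gave 582 for the average siRNA effect and 762 and 728 for dDAVP with control and with Ctnnb1 siRNA, and log2 TPM gave 210 for the last. Leaving out 1 library gave 0 to 0 interaction calls (541 to 1739 genes unadjusted, the most without library 3 of the knockdown dDAVP group), 807 to 1279 for the average dDAVP effect, 172 to 606 for the average siRNA effect, 240 to 843 for dDAVP with control siRNA and 212 to 492 for dDAVP with Ctnnb1 siRNA. The largest of the control and siRNA counts, 843 and 606, came without that same library; the cause was not tested. The slope ran from 0.841 to 1.05 over all genes and from 0.870 to 1.04 with at least 1 CPM in every group, a restriction added after seeing the data, as were the list medians under each alternative.

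Of 116 genes followed through the alternatives, 2301 estimates kept the direction of a gene with an unadjusted p under 0.05 or moved by no more than its error, 18 moved by more than their error, 1 became stronger (Nr4a1 with DESeq2) and none with an unadjusted p under 0.05 changed sign. Replicate numbers were shared by the labels but did not pair the libraries: over 18 same-numbered pairs the correlation of deviations ran from -0.09 to 0.07. With the replicate block 0 genes were called for the interaction, 1064 for the average dDAVP effect and 263 for the average siRNA effect, 408 and 415 for the single dDAVP effects, and the slope was 0.936. With 3 libraries a group, interactions under about 1.22-fold lay within the interval of the median gene. That interval is for a single gene and is not adjusted for the number tested, so larger interactions can go uncalled. The interaction of Nr4a1, at 1.47-fold with an SE of 0.10, was not called in edgeR.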
